A study of Mus musculus and Homo sapiens with 18 samples.

Results

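The control mouse lens and the unedited HLE-B3 line were set side by side, to see which lens genes a cultured human lens epithelial line still carried and which epithelial, mesenchymal and growth genes ranked differently in it. The comparison uses 6 of the 18 RNA-seq libraries of the series, 3 of each group, chosen by their labels alone. The lenses came from Nestin-CreERT2; QkL/+ mice given tamoxifen at P7 to P8 and collected at P17 to P19, so these controls carry the tamoxifen-inducible Cre recombinase, driven by the Nestin promoter, and 1 Qk allele flanked by loxP sites. A dissected lens holds its epithelium together with its fibre cells. HLE-B3 is an immortalized human lens epithelial cell line, here wild type and grown in medium with 20% fetal bovine serum, and it is one line, with no other donor beside it. The labels do not say whether its 3 libraries came from separate cultures, so p-values measure the spread between these libraries, which may be technical in part. For named genes the rank in 3 WT NLPC libraries, mouse lens progenitor-like cells differentiated from neural stem cells, is given beside the others with no test. Species, culture, sequencing depth, gene models and the table in which the reads were counted all differ between lens and line and cannot be told apart.

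The lens is built of a single front layer of epithelial cells and of fibre cells that arise from them. As an epithelial cell becomes a fibre it leaves the cell cycle, elongates, fills with crystallins, the water-soluble proteins that refract light, and loses its organelles. PAX6, PROX1, MAF, FOXE3, SOX1, PITX3 and HSF4 are transcription factors of this program, and a basement membrane, the lens capsule, encloses the organ. Lens epithelial cells in culture or after injury can take on mesenchymal traits, with production of fibronectin, collagen I and smooth muscle actin.

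Total counts were 13409323 to 16425331 per lens library and 69881710 to 81384471 per HLE-B3 library, and 89.9 to 90.7% of them fell on the 16107 genes that could be matched between the mouse and human tables. Of these, 12108 (75.2%) had enough counts to be tested. Every library ranked its own genes by counts per kb of exon, from 0 for the lowest to 100 for the highest, and a gene at 0 counts had a rank of 1.97 to 2.78. A gene was called by rank when the 3 libraries of one group all lay above the 3 of the other and the means differed by at least 20 points. Of the genes tested, 2756 (22.8%) ranked higher and 2791 (23.1%) ranked lower in the lens by this rule, and edgeR's quasi-likelihood test called 4958 (40.9%) higher and 5598 (46.2%) lower at an adjusted p under 0.05. Ranks do not depend on how libraries are scaled, but the edgeR calls do, and scaling to total counts in place of TMM shifted the median log2 difference by −1.67 and gave 2660 higher and 8342 lower. The line was sequenced more deeply, and values of low genes in the lens carry the larger counting error. Photoreceptor and retina markers differed among the lenses, with 10 markers summing to a CPM (counts scaled to a common library total) of 72.0 in lens 1, 566 in lens 2 and 2.31 in lens 3, against 1.35 to 1.47 in HLE-B3. Without lens 2, 2748 genes ranked higher and 2768 lower in the lens. Of the other cell types looked for, the summed markers had a CPM in the lens of 32.9 to 35.6 for pigment epithelium, ciliary body and iris, 11.8 to 32.4 for cornea, 1.72 to 3.17 for leukocytes, 3.73 to 7.73 for endothelium, 2.98 to 5.82 for red blood cells and 2.54 to 4.29 for skeletal muscle.

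The 150 bases before the annotated start of 2 crystallin genes are shown for both species, since these genes were among the highest of the mouse lens and had no count in the human line. CRYBA1 encodes a β-crystallin and CRYGD a γ-crystallin. Bases in capitals are the letters TGCTGA, the half-site of large Maf factors, where they occur. Capitals nearer the start of a gene are the letters TATAAA, which form the core promoter motif named TATA box. All are written 5′ to 3′ on the strand of the gene. Mouse windows are from RefSeq, with coordinates of GRCm38.p6. Human windows were cut from GRCh37 before the start of the Ensembl canonical transcript of protein-coding genes, so the start is defined differently in each species. Mouse Cryba1 (chr11:77725294-77725443, minus strand) and human CRYBA1 (chr17:27573727-27573876, plus strand) each hold both motifs, and mouse Crygd (chr1:65063441-65063590, minus strand) and human CRYGD (chr2:208989249-208989398, minus strand) hold neither of these letter strings.
mouse Cryba1: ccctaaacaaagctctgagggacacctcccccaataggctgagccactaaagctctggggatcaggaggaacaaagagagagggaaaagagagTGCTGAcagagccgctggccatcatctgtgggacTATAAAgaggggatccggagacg
human CRYBA1: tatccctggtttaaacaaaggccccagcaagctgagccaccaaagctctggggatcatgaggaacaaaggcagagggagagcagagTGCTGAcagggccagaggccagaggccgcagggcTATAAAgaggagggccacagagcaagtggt
mouse Crygd: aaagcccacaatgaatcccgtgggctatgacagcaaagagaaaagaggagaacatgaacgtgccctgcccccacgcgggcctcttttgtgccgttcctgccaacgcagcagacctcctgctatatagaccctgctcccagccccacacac
human CRYGD: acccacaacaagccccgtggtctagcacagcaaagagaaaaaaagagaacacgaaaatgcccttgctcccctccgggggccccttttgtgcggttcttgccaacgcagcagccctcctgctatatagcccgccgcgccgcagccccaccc
On either strand TGCTGA was found in 6 of 15 crystallin windows of the mouse (40%) and 7 of 14 of human (50%), and in 10.1% of all 32851 mouse and 7.16% of all 19875 human windows of this length. TATAAA was found in 3 of 15 mouse (20%) and 5 of 14 human (35.7%) crystallin windows, against 4.84 and 5.34% of all. For the genes of lens fibre membranes, filaments and enzymes the half-site was in 5 of 18 mouse windows (27.8%) and 4 of 17 human windows (23.5%). A match of letters is a description and not a binding site.

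Crystallins were at the top of every lens library, and all but 2 of those matched were at or near 0 in every HLE-B3 library. Reads on crystallin genes made up 65.1% ± 0.323 (SD, n = 3; 64.7 to 65.3) of lens counts and 0.0546% ± 0.00435 (SD, n = 3; 0.0496 to 0.0574) of HLE-B3 counts. CRYAA, which encodes αA-crystallin, a small heat shock protein and chaperone, alone took 14.5% ± 0.360 (SD, n = 3) of lens counts, and CRYBA1 took 8.53% ± 0.722 (SD, n = 3). CRYAA had 1976445, 2152396 and 2313340 counts in lenses 1 to 3 and 0 in each HLE-B3 library. The human CRYAA exons overlap those of CRYAA2 over 62.5% of their length, and the CRYAA2 row also held 0 in each HLE-B3 library. CRYBA1 had 1032114, 1309409 and 1473065 counts in the lenses, CRYGB 742049, 778086 and 1009971, CRYGD 617349, 675494 and 766653 and CRYGN 8834, 12198 and 17943, and all 4 were at 0 in HLE-B3. A count of 0 allows up to 3 counts in a library, by counting error alone. CRYBB2, CRYGC, CRYBA2, CRYBB3, CRYBB1, CRYGA and CRYBA4 had no more than 8 counts in any HLE-B3 library and 176488 or more in every lens, so the groups lay far apart for each of the 12. Mouse Cryge and Crygf, with 624315 to 714519 and 211000 to 275365 counts in the lens, had no human row to match.

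CRYAB, which encodes αB-crystallin, the small heat shock protein that is also made outside the lens, was the exception. It had 379478, 308156 and 367181 counts in the lenses and 46534, 40177 and 34398 in HLE-B3, with ranks of 99.9 in every lens and of 98.7, 98.6 and 98.4 in the line. So it lay near the top of both systems and was not called by rank, with a difference of 1.35 points, and it supplied 99.3 to 99.7% of the crystallin counts of the line. Relative to the other genes it was higher in the lens (edgeR log2 fold change 8.55, SE 0.191, adjusted p = 1.83e-11). In the NLPCs CRYAB ranked at 94.3. CRYGS, a γ-crystallin of the mature lens, had 398676, 439481 and 542271 counts in the lens and 144, 179 and 230 in HLE-B3, at ranks of 25.8, 29.1 and 32.6. It was thus detected in every library of the line and still ranked 70.8 points below the lens. In all, 14 of the 16 listed crystallins were matched and tested. Of these, 13 ranked higher and 0 lower in the lens, against 22.8% and 23.1% of all genes tested. The median difference was 95.8 points, where the median over all genes tested was −1.04 points. Of the 14, 12 passed the filter on low counts through the lens libraries alone and so had to differ.

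**Figure D1:**
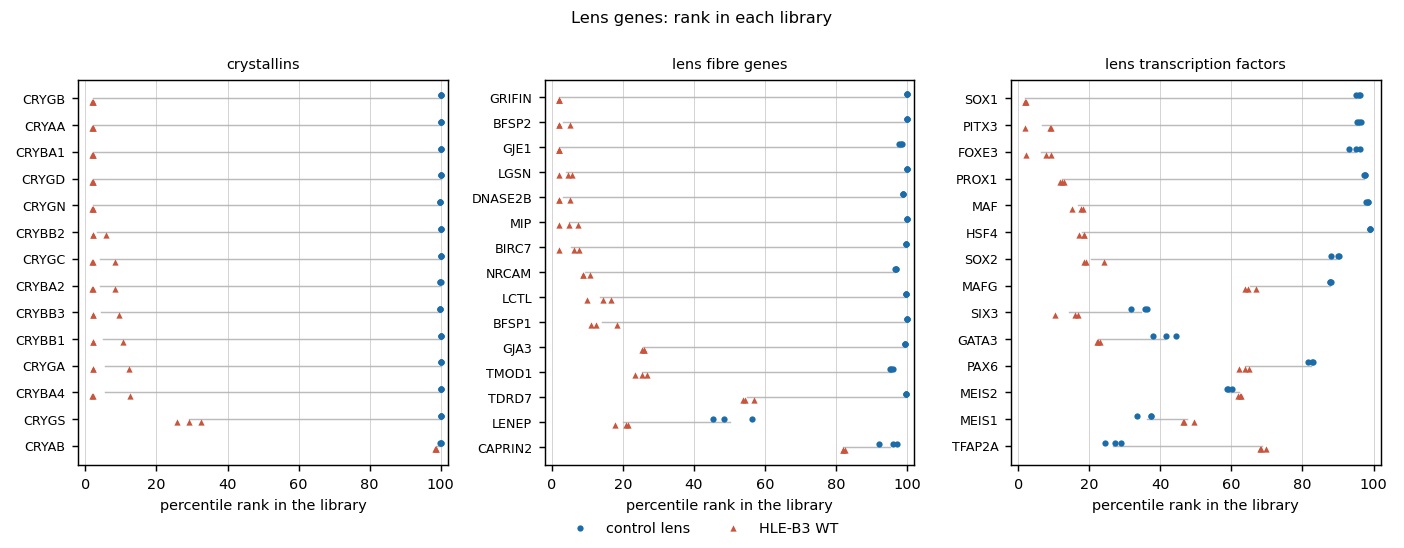
Percentile rank within each library (x axis, 0 lowest, 100 highest) of tested crystallins, lens fibre genes and lens transcription factors, with circles for 3 control lens libraries, triangles for 3 WT HLE-B3 libraries and a line between the group means. CRYAB lies at the right edge in both groups, while the other crystallins of HLE-B3 lie between 1.97 and 32.6, and PAX6, MEIS2 and CAPRIN2 lie closer together than most genes of their lists.

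The genes that build the fibre cell gave the same picture with more members left in the line at a low level. Of 17 listed, 16 were tested, and 15 ranked higher and 0 lower in the lens, against 22.8% and 23.1% of all genes tested. The median difference was 90.8 points. Of the 17, 9 had under 10 counts in every HLE-B3 library. LIM2, 1 of these, was not tested, and the others passed the filter through the lens alone, so they had to differ. BFSP2, 1 of the 2 proteins of the beaded filament, had 79894, 87480 and 97731 counts in the lens and 1, 0 and 0 in HLE-B3. Its partner BFSP1 had 112952, 114261 and 120426 counts in the lens and 96, 33 and 26 in the line, at ranks of 18.4, 12.6 and 11.2. MIP, the water channel aquaporin-0 and main membrane protein of fibres, had 118428, 154035 and 173354 counts against 1, 8 and 0, and its human exons are overlapped by another gene over 56.6% of their length. These 3 genes were all within the top of the lens libraries, at a mean rank of 99.9.

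Connexins make the gap junctions through which fibres exchange metabolites. GJA3 (connexin 46) had 6351, 7043 and 8393 in the lens and 362, 312 and 322 in the line, at ranks of 25.4 to 25.9 in HLE-B3. GJE1, a connexin-like gene, had 885 to 1791 counts in the lens and 0 in the line. GRIFIN, a lens galectin, and LGSN (lengsin) had 15496 to 18595 and 85691 to 115430 counts in the lens and at most 5 in any HLE-B3 library. DNASE2B, the nuclease that degrades fibre nuclei, had 3032, 3418 and 4375 counts against 0, 0 and 1, and BIRC7 had 6576 to 8882 against at most 4.

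NRCAM, a cell adhesion protein, ranked at 96.7 in the lens and 9.49 in the line, and LCTL at 99.8 and 13.7. TMOD1, which caps actin filaments, had 1177, 1229 and 1734 counts in the lens and 204, 223 and 249 in HLE-B3, and ranked at 95.6 and 25.3. TDRD7, an RNA granule protein whose loss causes cataract, was the fibre gene with the second highest rank in the line. It had 29081, 35085 and 35907 counts in the lens and 1675, 1451 and 1588 in HLE-B3, at mean ranks of 99.8 and 55.0, and the groups did not overlap. CAPRIN2, another RNA-binding protein, had 4761, 2729 and 9022 counts in the lens and 11994, 10550 and 10546 in the line. Its ranks were 92.0 to 97.3 and 81.8 to 82.4, a difference of 12.99 points that was under the threshold, although edgeR called it higher in the lens (log2 fold change 2.21, SE 0.312, adjusted p = 4.58e-05; 0.52 with adjusted p = 0.0994 when scaled to total counts). LENEP had 37, 28 and 31 counts against 29, 29 and 18, but mouse Lenep lies within another gene over 99.1% of its exons, so its reads are uncertain. LIM2, a fibre membrane protein, had 0, 1 and 0 counts in the lens and 0 in HLE-B3 and was not tested. LIM2 is an abundant fibre protein, and why its row held almost no reads was not tested.

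Among the lens transcription factors, most were near the bottom of the line and a few ranked within 20 points of the lens. Of 15 listed, 14 were tested, and 9 ranked higher and 1 lower in the lens, against 22.8% and 23.1% of all genes tested. The median difference was 45.8 points. Of the 9, SOX1, PITX3 and FOXE3 had under 10 counts in every HLE-B3 library and passed the filter through the lens, so they had to differ. SOX1, which acts on γ-crystallin genes in fibres, had 1580, 1445 and 2173 counts in the lens and 0 in every HLE-B3 library. PITX3 had 569, 550 and 591 counts against 6, 6 and 0, and FOXE3, the factor of the lens epithelium that keeps its cells dividing and undifferentiated, had 305, 260 and 224 against 5, 0 and 8. Their mean ranks in the lens were 95.9 and 94.8. PROX1, needed for fibre elongation, had 4480, 4694 and 6110 counts in the lens and 83, 82 and 97 in the line, with mean ranks of 97.4 and 12.4. MAF, a large Maf factor that binds crystallin promoters, had 6583, 5661 and 8583 against 120, 185 and 165, and ranked at 98.1 and 16.98. HSF4, the lens heat shock factor, had 2401, 2613 and 3067 against 94, 105 and 104, and ranked at 99.0 and 18.04. For these 6 factors every lens library lay at 93.1 or above and every HLE-B3 library at 18.5 or below. SOX2 had 293, 316 and 289 counts against 73, 131 and 73, at mean ranks of 89.5 and 20.6, and in the NLPCs it ranked at 96.7.

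PAX6, the master factor of eye development, had 866, 958 and 959 counts in the lens and 12700, 10760 and 9859 in HLE-B3. Its ranks were 83.0, 82.8 and 81.4 in the lens and 65.0, 63.9 and 62.3 in the line, so the groups did not overlap and the difference of 18.7 points was just under the threshold. The edgeR log2 fold change was 1.08 (SE 0.082, adjusted p = 2.07e-07) relative to the median gene, and it turned to −0.58 when libraries were scaled to total counts. MAFG, a small Maf protein, ranked at 87.9 against 65.1 and SIX3 at 34.5 against 14.4. GATA3 ranked at 41.3 and 22.5, MEIS2 at 59.3 and 62.2 and MEIS1 at 36.2 and 47.4, with no call by rank. TFAP2A, an epithelial factor of the early lens, was the one that ranked lower in the lens, with 23, 32 and 19 counts against 6135, 5059 and 5025 and mean ranks of 26.8 and 68.6. With lens 2 left out, 8 factors rather than 9 ranked higher. SOX11 had at most 3 counts in any lens and 10 in any HLE-B3 library and was not tested.

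HLE-B3 was derived from the lens epithelium, and genes of that layer were mostly low in it. All 8 listed were tested, and 5 ranked higher and 1 lower in the lens, against 22.8% and 23.1% of all genes tested. The median difference was 71.2 points. FOXE3 and CDH1, among the higher, passed the filter on low counts through the lens alone, so they had to differ. FOXE3, PAX6, TFAP2A and CDH1 are also members of other lists here. Besides FOXE3, AQP1, the water channel of the epithelium, had 1199, 752 and 540 counts in the lens and 143, 65 and 151 in the line, and its mean ranks were 94.4 and 20.4. PDGFRA, the receptor through which the epithelium is driven to divide, had 750, 723 and 869 counts against 40, 56 and 53. NPNT (nephronectin), an integrin ligand, had 377, 456 and 333 against 62, 51 and 51. GJA1 (connexin 43), the gap junction protein of epithelial cells, had 702, 707 and 516 counts in the lens and 11193, 8342 and 8593 in the line, with mean ranks of 78.2 and 93.2 and no call by rank. In bulk libraries of a whole lens, fewer cells of a type and less RNA per cell cannot be told apart, and the epithelium is a minor part of the lens by volume.

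**Figure D2:**
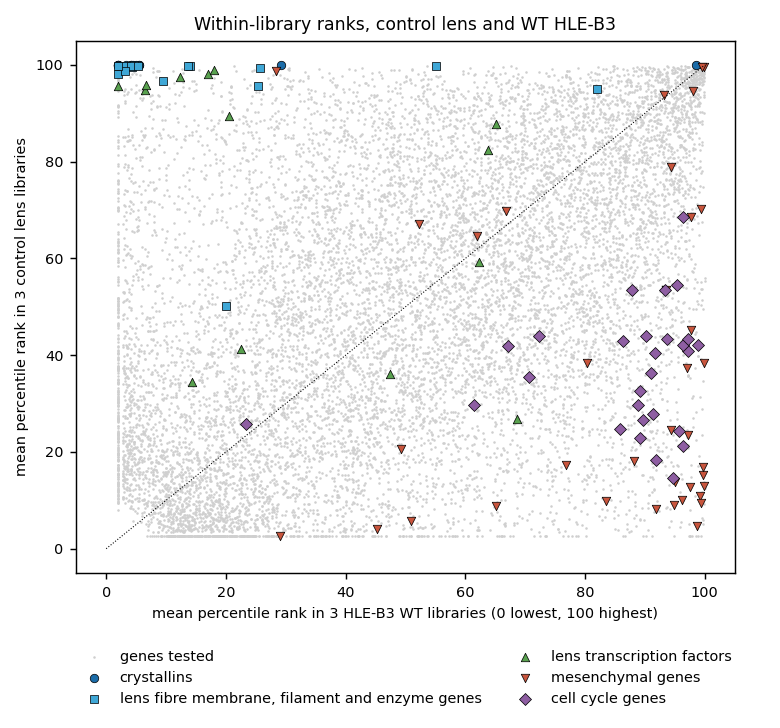
Mean percentile rank of each of 12108 genes in 3 WT HLE-B3 libraries (x axis) and 3 control lens libraries (y axis), both from 0 to 100, with 5 gene lists marked and the dotted line at equal rank. Crystallins and fibre genes gather at the upper left, cell cycle and most mesenchymal genes lie at the lower right, and the Spearman correlation over all genes was 0.437.

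Over all genes the order of expression in the lens was only loosely that of the line. Spearman's correlation of the mean ranks across genes was 0.437, where pairs of lens libraries gave 0.974 to 0.983 and pairs of HLE-B3 libraries 0.996. Of the 606 genes in the top 5% of each system, 190 (31.4%) were shared. Of the top 606 of the lens, 153 (25.2%) lay below the median in HLE-B3 and 52 in its lowest 10%, while of the top 606 of the line 108 (17.8%) lay below the median in the lens and 18 in its lowest 10%. These points share libraries and gene lengths and are given as a description.

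General epithelial genes were low in both systems, and those above the filter pointed both ways. Of 26 listed, 17 were tested, and 2 ranked higher and 6 lower in the lens, against 22.8% and 23.1% of all genes tested. The median difference was −9.99 points. DSP, KRT8 and MARVELD2, among the lower, had under 10 counts in every lens library and passed the filter through the line alone. CLDN1, with 22, 22 and 2 counts in the lens, also passed through the line alone. KRT19, with 0 counts in the line, and CDH1, with 29, 9 and 1, were the higher members and passed through the lens alone. All of these therefore had to differ. With at least 10 counts required in every library, 2 members ranked lower. Lens cells are joined by cadherins and have few of the claudins and keratins of surface epithelia, and 17 of the 26 had under 10 counts in every lens library. CDH1 (E-cadherin), the cadherin of epithelial junctions, had 346, 392 and 387 counts in the lens and 29, 9 and 1 in HLE-B3. Its ranks were 81.9 to 83.5 in the lens and 4.26 to 9.33 in the line, so the groups lay far apart. KRT19 had 96, 88 and 90 counts in the lens and 0 in the line, although other keratins went the other way. KRT18 had 20, 17 and 11 counts in the lens and 34529, 31640 and 29180 in HLE-B3, and its partner KRT8 had 6, 1 and 0 against 2414, 2140 and 1862.

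DSP (desmoplakin), which anchors keratins to desmosomes, had the widest gap of the list, with 2, 3 and 2 counts in the lens and 299681, 271258 and 285615 in the line, at mean ranks of 6.44 and 99.5. The tight junction gene CLDN1 had 22, 22 and 2 counts against 3906, 3046 and 3330, and MARVELD2 (tricellulin) 1, 5 and 2 against 1298, 1268 and 1078. TJP1 (ZO-1), the scaffold of tight junctions, was near the top of both systems at 95.6 and 94.4, and JUP (plakoglobin) ranked at 48.2 and 45.5 (edgeR log2 fold change −0.07, SE 0.161, adjusted p = 0.679; −1.74 with adjusted p = 1.39e-06 when scaled to total counts). TJP3, with at most 22 counts in any library, was not called by rank. The 9 members left out by the filter were EPCAM, ESRP1, GRHL2, OVOL1, OVOL2, CLDN7, CRB3, RAB25 and ST14, with at most 5 counts in any lens library and 32 in any HLE-B3 library. With lens 2 left out, 3 members rather than 2 ranked higher in the lens.

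Most mesenchymal genes ranked low in the lens and near the top of the line. All 37 were tested, and 1 ranked higher and 28 lower in the lens, against 22.8% and 23.1% of all genes tested. The median difference was −56.2 points. The median rank of the list was 21.6 to 22.8 in the lens libraries and 94.8 to 94.9 in those of the line. FN1 (fibronectin), the matrix protein laid down by migrating cells, had 19, 8 and 14 counts in the lens and 1641390, 1489530 and 1459214 in HLE-B3, at mean ranks of 13.04 and 99.9. SNAI2, a repressor of CDH1, had 1, 0 and 0 counts in the lens and 37076, 29816 and 29006 in the line, and SNAI1 had 1, 0 and 2 against 6477, 6040 and 4878. Both factors thus lay in the lowest part of the lens libraries and, at mean ranks of 98.7 and 94.8, near the top of HLE-B3.

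Fibrillar collagens and their enzymes were of the same kind. COL5A2 had 5, 8 and 5 counts in the lens and 132168, 115725 and 109623 in HLE-B3, and COL1A1 had 16, 11 and 5 against 277605, 250851 and 250740. LOX, which cross-links collagen, had 4, 1 and 5 counts against 23204, 23139 and 24903. TAGLN (transgelin), an actin-binding protein of smooth muscle and myofibroblasts, had 1, 1 and 3 against 107935, 91156 and 87165, with 38.1% of its human exon bases shared with another gene. TGFBI, a known target of TGF-β, ranked at 16.8 in the lens and at 99.7 in the line. In all, 12 of the 37 had under 10 counts in every lens library. Besides SNAI1, SNAI2, COL5A2, LOX, TAGLN and TGFBI these were TNC, THY1, FAP, CNN1, TWIST1 and TWIST2. The minimum count of the filter scales with library size, so COL5A2 and TGFBI passed it in the lens as well as in the line. The others of the 12, and MMP2 with 3, 16 and 5 counts in the lens, passed through the line alone, so they had to differ.

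Some genes often taken as mesenchymal differed by under 20 points in rank, although edgeR called several of them. VIM (vimentin), the intermediate filament of lens cells as well as of fibroblasts, had 18928, 19849 and 20401 counts in the lens and 261832, 230297 and 212335 in the line, and ranked at 99.6 and 99.8. CDH2 (N-cadherin), the main cadherin of lens fibres, ranked at 94.6 and 98.0 with groups that did not overlap, and SPARC, a matrix protein of the lens capsule, at 99.5 and 99.6. ACTA2, smooth muscle actin, had 484, 1127 and 411 counts against 16740, 15784 and 13767 and ranked at 93.8 and 93.1. ZEB1 and ZEB2, repressors of epithelial genes, ranked at 67.1 and 64.7 in the lens and 52.3 and 61.9 in the line, and PDGFRB at 69.7 and 66.8 (edgeR log2 fold change 0.0012, SE 0.202, adjusted p = 0.996; −1.67 with adjusted p = 9.49e-06 when scaled to total counts). The ranks of ZEB1 did not overlap between the groups. By edgeR ZEB1 was higher in the lens by a log2 fold change of 0.61 (adjusted p = 7.68e-05), VIM by 0.40 (adjusted p = 0.00167) and SPARC by 0.70 (adjusted p = 4.37e-05), and CDH2 was lower, at −0.79 (adjusted p = 3.04e-06). With libraries scaled to total counts, ZEB1, VIM and SPARC turned to −1.06, −1.27 and −0.97. S100A4 was the one that ranked higher in the lens, with 655, 788 and 740 counts against 99, 39 and 109, but 51.7% of the exon bases of the mouse gene are shared with another gene. FBN1 had 436, 469 and 40 counts and CD44 had 750, 200 and 850 in lenses 1 to 3, so these members varied among the lenses.

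**Figure D3:**
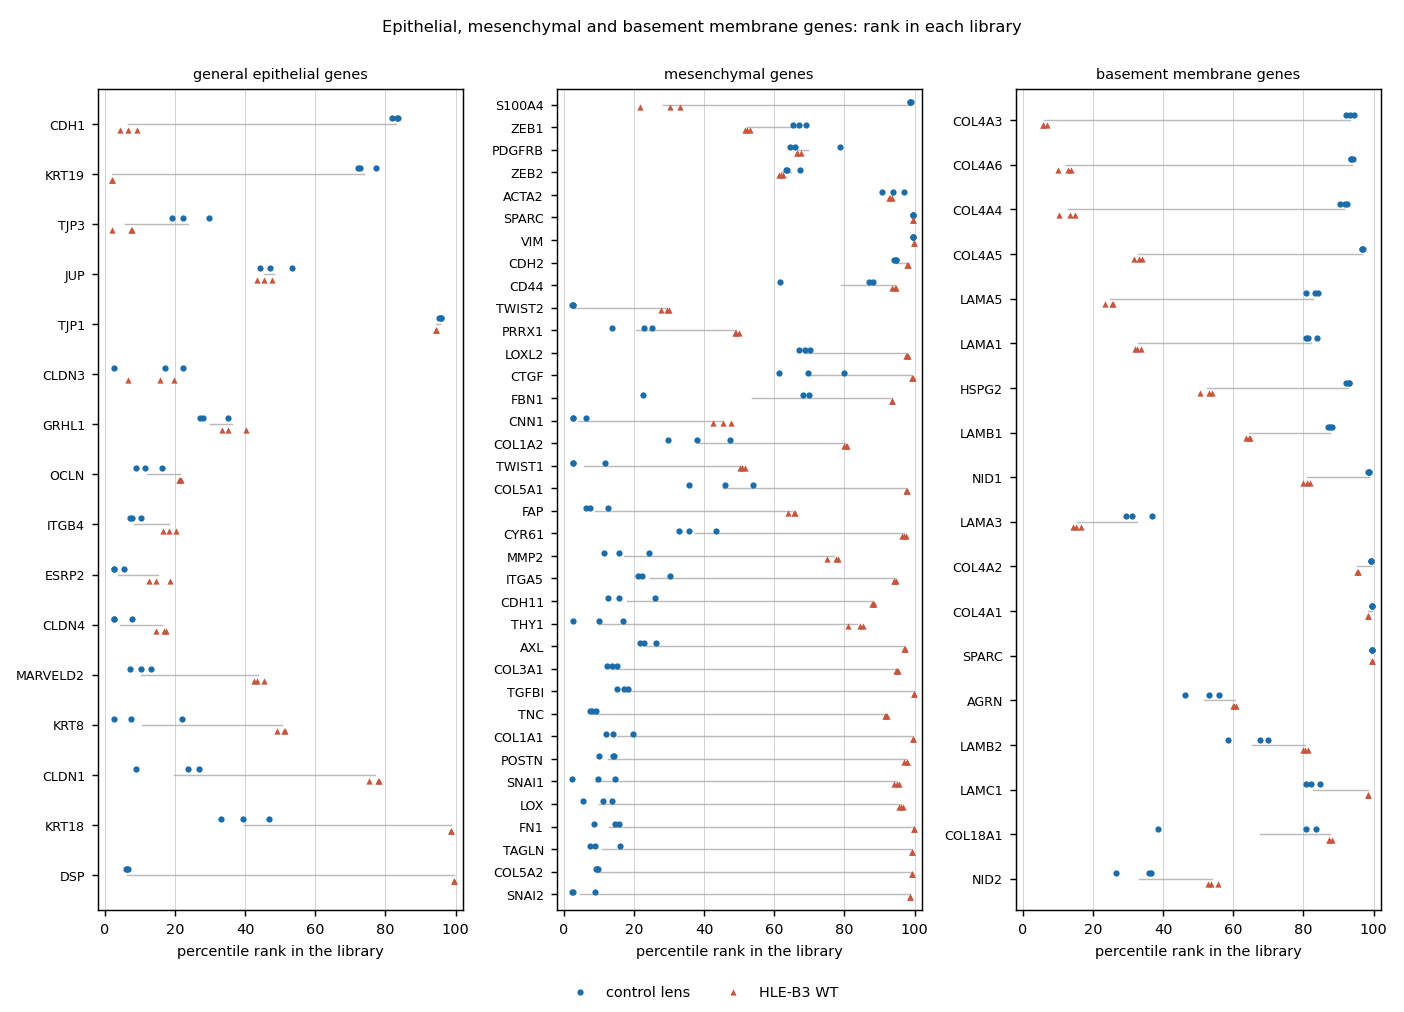
Percentile rank within each library (x axis, 0 lowest, 100 highest) of tested general epithelial, mesenchymal and basement membrane genes, with circles for 3 control lens libraries, triangles for 3 WT HLE-B3 libraries and a line between the group means. CDH1, COL4A3, COL4A4 and COL4A6 lie right in the lens and left in the line, most mesenchymal genes do the reverse, and VIM, SPARC, ACTA2 and TJP1 overlap or nearly so at the right.

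Basement membrane genes, which make the lens capsule, went mostly in the direction of the lens. All 18 were tested, and 8 ranked higher and 1 lower in the lens, against 22.8% and 23.1% of all genes tested. The median difference was 17.4 points. The chains of type IV collagen divided into a pair that both systems had at a high level and 4 that were largely of the lens. COL4A1 had 30301, 28988 and 36349 counts in the lens and 138328, 116089 and 115315 in HLE-B3, at mean ranks of 99.6 and 98.4, and COL4A2 ranked at 99.3 and 95.4. COL4A3 had 2372, 2235 and 2225 counts in the lens and 22, 11 and 12 in the line, at mean ranks of 93.2 and 6.19. It passed the filter on low counts through the lens alone, so it had to differ. COL4A4 had 1517, 2107 and 2313 against 150, 180 and 76, and COL4A6 had 1880, 1872 and 2111 against 125, 97 and 55. COL4A5 ranked at 96.7 and 32.9.

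Of the laminins, LAMA1 and LAMA5 ranked at 82.0 and 82.7 in the lens and 32.9 and 25.0 in the line, LAMB1 at 87.5 and 64.4, and LAMC1 at 82.6 and 98.3 with no call by rank. HSPG2 (perlecan), the heparan sulfate proteoglycan of the capsule, had 2845, 3044 and 3212 counts against 6126, 6123 and 6110 and ranked at 92.7 and 52.5. NID2, a linker of laminin and collagen IV, was the only member that ranked lower, at 33.0 against 54.1. COL18A1 had 448, 612 and 73 counts in lenses 1 to 3 and 15076, 14097 and 12883 in the line, with lens 3 at a rank of 38.5 and the others at 80.8 and 83.7. The lens with the low COL18A1 and FBN1 was the one whose retina markers summed to a CPM of 2.31, and the part of the retina in these values was not tested. With lens 2 left out, 2 members rather than 1 ranked lower in the lens.

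**Figure D4:**
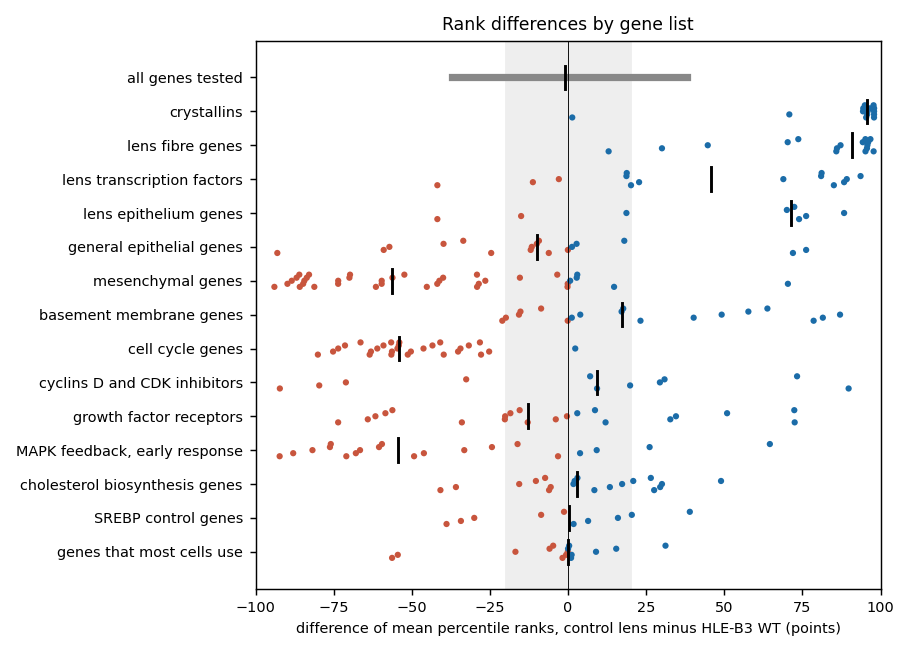
Difference of mean percentile ranks, control lens minus WT HLE-B3 (x axis, in points), for each tested member of 14 gene lists, with blue points above 0, red points below 0 and a black bar at each list's median. The grey bar of all genes tested spans the 10th to 90th percentile, −37.3 to 38.2 points, around a median of −1.04, and the shaded band marks differences under 20 points.

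Genes of DNA replication and mitosis ranked lower in the lens almost without exception. Of 28, 27 were called lower and 0 higher, against 23.1% and 22.8% of all genes tested. The median difference was −54.1 points, the median rank was 35.6 to 38.0 in the lens libraries and 90.9 to 91.5 in those of HLE-B3, and edgeR called the same number. MKI67, the Ki-67 protein of cycling cells, had 122, 133 and 96 counts in the lens and 65173, 72509 and 69742 in the line, at mean ranks of 40.8 and 97.1. TOP2A, the topoisomerase of mitotic chromosomes, had 99, 145 and 94 against 74460, 61614 and 62496. CDC6, which loads the replicative helicase, had the largest gap, with 3, 13 and 9 counts against 19204, 16434 and 17622. It passed the filter on low counts through the line alone. CCNB1 (cyclin B1), FOXM1, TK1, BUB1 and BIRC5 (survivin) ranked at 18.3 to 27.9 in the lens and 89.2 to 96.4 in HLE-B3. PCNA, the sliding clamp of replication, was the highest of the list in the lens, at 68.5, and ranked at 96.4 in the line. CCNE1 (cyclin E1) was the exception, with 10, 16 and 11 counts against 110, 97 and 172 and mean ranks of 25.7 and 23.4 (edgeR log2 fold change 0.35, SE 0.412, adjusted p = 0.434). Scaling to total counts turned CCNE1 to −1.31 (adjusted p = 0.0113), and all 28 genes were then lower in the lens by edgeR. In the NLPCs, which were also grown in culture, MKI67 ranked at 94.3 and TOP2A at 91.8.

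Regulators of the G1 phase ranked in both directions. Of 11 D-type cyclins, CDK inhibitors and RB1, 4 ranked higher and 4 lower in the lens, against 22.8% and 23.1% of all genes tested. The median difference was 9.29 points. CDKN1C (p57), the inhibitor with which fibre cells leave the cycle, had 1812, 2251 and 3264 counts in the lens and 33, 1 and 7 in HLE-B3, at mean ranks of 98.7 and 8.85. CDKN1B (p27), its partner in fibre cells, had 299, 299 and 291 counts against 3137, 2322 and 2378 and ranked at 79.3 and 48.4, and CDKN2D ranked at 60.7 and 31.3. CCND2 (cyclin D2) had 468, 521 and 715 counts against 0, 11 and 1. CDKN1C and CCND2 passed the filter on low counts through the lens alone, so they had to differ. CCND1 ranked at 91.1 and 84.0, CCND3 at 76.1 and 56.2 and CDKN2C at 82.1 and 72.8, with no call by rank.

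Of those that ranked lower in the lens, CDKN2A, which encodes p16 and ARF, had 0, 1 and 0 counts in the lens and 25063, 23176 and 17851 in HLE-B3. CDKN1A (p21), a target of p53, had 3 counts in every lens and 6910, 6090 and 5893 in the line, and CDKN2B (p15) had 6, 4 and 6 against 14471, 12716 and 12585. RB1, the protein on which these inhibitors act through cyclin-dependent kinases, ranked at 59.6 and 92.2. CDKN2A, CDKN1A and CDKN2B had under 10 counts in every lens library. CDKN2A and CDKN1A passed the filter through the line alone, so they had to differ, while CDKN2B also passed in the lens. The counts of CDKN2A do not separate its products. With lens 2 left out, 5 members rather than 4 ranked higher in the lens.

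**Figure D5:**
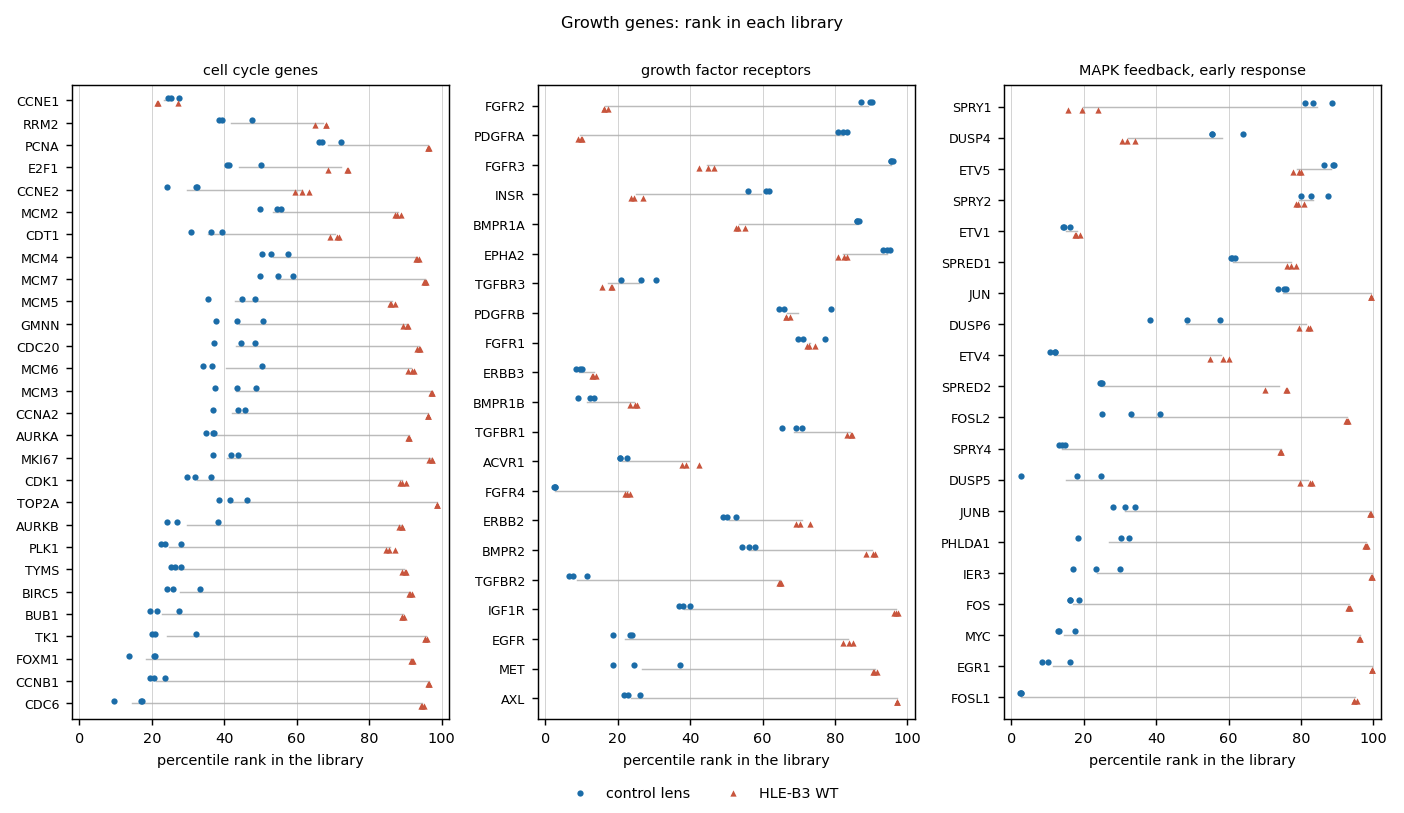
Percentile rank within each library (x axis, 0 lowest, 100 highest) of the cell cycle genes, growth factor receptors and MAPK feedback and early response genes tested, with circles for 3 control lens libraries, triangles for 3 WT HLE-B3 libraries and a line between the group means. All cell cycle genes except CCNE1 lie further right in the line, whereas FGFR2, PDGFRA, FGFR3 and SPRY1 lie further right in the lens.

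Growth factor receptors ranked in either direction, also within a family. Of 21 tested, 5 ranked higher and 8 lower in the lens, where 22.8% and 23.1% of all genes tested did so, and the median difference was −12.9 points. FGFR4 and TGFBR2, among the lower, had under 10 counts in every lens library. FGFR4, at 0 there, passed the filter on low counts through the line alone and had to differ, and TGFBR2 may have done so. FGF signalling drives fibre differentiation, and FGFR2 had 1354, 1636 and 1325 counts in the lens and 387, 411 and 354 in HLE-B3, at mean ranks of 89.1 and 16.5. FGFR3 had 2356, 2396 and 2700 against 1132, 1223 and 1094 and ranked at 95.6 and 44.7. FGFR1 did not separate the systems, at 72.8 and 73.1 (edgeR log2 fold change −0.24, SE 0.124, adjusted p = 0.090), but scaling to total counts gave −1.91 with an adjusted p of 3.84e-08. FGFR4 was at 0 in every lens and at 217 to 236 counts in the line. PDGFRA ranked at 82.1 and 9.65, the insulin receptor gene INSR at 59.5 and 24.9 and BMPR1A, a BMP receptor, at 86.3 and 53.6. EPHA2, an ephrin receptor whose variants cause cataract, ranked at 94.2 and 82.2 with no call by rank.

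Among the receptors that ranked lower in the lens, AXL had 22, 19 and 17 counts in the lens and 30778, 27003 and 25027 in HLE-B3, and MET, the receptor of hepatocyte growth factor, had 17, 82 and 30 against 16152, 14610 and 15247. EGFR had 40, 52 and 24 counts against 21031, 20294 and 20865, at mean ranks of 22.03 and 83.7. IGF1R ranked at 38.4 and 96.8, the TGF-β receptor TGFBR2 at 8.64 and 64.9, BMPR2 at 56.2 and 90.1 and ERBB2 at 50.6 and 70.8. The differences of ERBB2 and FGFR4, −20.2 and −20.1 points, were close to the threshold, and 6 members rather than 8 ranked lower when libraries were thinned to the same total over the matched genes other than crystallins or when genes with shared exons were left out.

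Early response genes, which serum and growth factors induce within minutes, had few counts in the lens and ranked high in the line. With the feedback inhibitors of the MAPK pathway there were 20 genes. Of these, 2 ranked higher and 14 lower in the lens, against 22.8% and 23.1% of all genes tested. The median difference was −54.4 points. Of the 14, 7 had under 10 counts in every lens library (EGR1, FOS, FOSL1, MYC, IER3, SPRY4 and ETV4). EGR1, FOSL1 and MYC passed the filter through the line alone, so they had to differ, while FOS also passed in the lens. IER3, SPRY4 and ETV4 may have passed only through the line. With at least 10 counts required in every library 6 members ranked lower. EGR1 had 3, 3 and 7 counts in the lens and 90383, 81111 and 80305 in HLE-B3, at mean ranks of 11.7 and 99.6. FOSL1 had 0 in every lens and 7824, 6032 and 5761 in the line, FOS had 4, 5 and 5 against 10073, 8368 and 8341, and MYC had 3, 4 and 5 against 30340, 25848 and 23739. IER3 and PHLDA1 ranked at 23.5 and 27.1 in the lens and at 99.5 and 98.0 in the line. JUN was the least low of them in the lens, with 150, 157 and 187 counts and a mean rank of 74.9 against 99.3.

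Feedback genes tied to FGF signalling were more mixed. SPRY1 (Sprouty 1) had 345, 217 and 268 counts in the lens and 135, 67 and 207 in HLE-B3, at mean ranks of 84.4 and 19.8, and DUSP4, a phosphatase of MAP kinases, ranked at 58.3 and 32.2. SPRY2 ranked at 83.4 and 79.5 (edgeR log2 fold change 0.25, SE 0.156, adjusted p = 0.150; turned to −1.42 with adjusted p = 4.27e-06 when scaled to total counts) and ETV5, an FGF-responsive factor, at 88.2 and 79.0, with no call by rank. Their relatives SPRY4 and ETV4 ranked lower in the lens, at 13.9 and 11.7 against 74.4 and 57.8.

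The genes of cholesterol biosynthesis differed by enzyme, some higher and some lower in the lens. Cholesterol is the main sterol of fibre membranes, and the lens makes most of its own. All 19 were tested, 6 ranked higher and 2 lower in the lens, against 22.8% and 23.1% of all genes tested, and the median difference was 3.01 points. HMGCS1, the synthase at the start of the pathway, had 550, 743 and 816 counts in the lens and 13109, 9850 and 11292 in HLE-B3 and ranked at 89.8 and 88.1. CYP51A1, which demethylates lanosterol, had the largest difference, with 370, 466 and 546 counts against 598, 808 and 564 and mean ranks of 86.0 and 37.02, but 68.2% of its human exon bases are shared with another gene. LSS, the lanosterol synthase, had 279, 341 and 456 counts against 1394, 877 and 876 and ranked at 64.9 and 35.4. MVK, PMVK and MVD, the kinases and the decarboxylase of mevalonate, ranked at 59.1, 85.4 and 77.2 in the lens and at 29.0, 57.8 and 56.3 in the line. DHCR7, the last enzyme of one branch, ranked at 72.9 and 46.4.

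FDPS, which makes farnesyl diphosphate, had 41, 61 and 65 counts in the lens and 5671, 4709 and 4474 in HLE-B3 and ranked at 43.2 and 84.0. EBP ranked at 47.9 and 83.8, with 36.4% of its human exon bases shared with another gene. MSMO1, SQLE and HSD17B7 differed by −15.6, −10.3 and −6.07 points, with no call by rank. By edgeR 9 members were higher and 7 lower, and scaling to total counts turned this to 1 higher and 13 lower, so the direction of these genes by edgeR depends on the scaling. In the NLPCs HMGCS1 ranked at 99.6.

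The genes that control the pathway through SREBP, the sterol-sensing transcription factors, ranked in either direction. Of 10 tested, 2 ranked higher and 3 lower in the lens, against 22.8% and 23.1% of all genes tested. The median difference was 0.24 points. SREBF2, the gene of SREBP2, had 201, 234 and 200 counts in the lens and 18926, 22271 and 21312 in HLE-B3, at mean ranks of 62.6 and 92.7. SREBF1 went the other way, with 1058, 866 and 747 counts against 5936, 5929 and 5043 and mean ranks of 90.02 and 69.6. INSIG2, which holds SREBP in the endoplasmic reticulum, ranked at 82.1 and 43.1, and INSIG1 at 95.6 and 89.2 with no call. The sterol carrier STARD4 ranked at 40.9 in the lens and 75.2 in the line. SCAP, the escort of SREBP, ranked at 64.1 and 65.3, MBTPS1 at 76.8 and 85.4 and MBTPS2 at 34.2 and 32.5.

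QKI, the RNA-binding protein deleted in the knockout libraries of the series, was well expressed in both. It had 1453, 1625 and 1852 counts in the lens and 21519, 19137 and 18447 in HLE-B3, and ranked at 87.3, 87.1 and 87.2 against 80.9, 81.3 and 81.1. The groups did not overlap, and the difference of 6.11 points was not called by rank. By edgeR the log2 fold change was 0.54 (SE 0.077, adjusted p = 5.03e-05), and −1.13 with libraries scaled to total counts, so its direction by edgeR turned with the scaling. In the NLPCs QKI ranked at 99.3.

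Genes that most cells use are given for comparison. Of 15, 1 ranked higher and 2 lower in the lens, against 22.8% and 23.1% of all genes tested. The median difference was −0.09 points. ACTB, EEF1A1, EEF2, RPLP0 and PPIA differed by at most 1.15 points between the systems, all at 97.5 or above. TBP and POLR2A, of the basal transcription machinery, were the 2 that ranked lower in the lens, at 22.1 and 33.0 against 76.5 and 89.3. HPRT1 ranked at 88.6 and 73.2 and SDHA at 90.1 and 81.1.

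Outside the lists, the 12 genes that ranked highest in the lens against the line were at or near 0 in HLE-B3. OGN (osteoglycin), a small leucine-rich proteoglycan, had 3329, 3918 and 5147 counts in the lens and 0 in the line, at a mean lens rank of 99.1. PGAM2, the muscle form of phosphoglycerate mutase, had 7278, 9360 and 11318 against 0, 0 and 2. DAPL1, R3HDML, PCP4, RMST, PPP1R1A, CELA1 and SRD5A2 had 576 or more counts in every lens and at most 1 in any HLE-B3 library. Of the human exon bases of DAPL1, 30.3% are shared with another gene. RMST is a long noncoding RNA, and SRD5A2 a steroid 5-alpha-reductase. EEF1G had 2431, 3032 and 3351 counts against 0, but 99.7% of its human exon bases are shared with another gene, and it ranked at 97.2 in the NLPCs. MIR3064 lies wholly within another gene in both species, and GSTM5 belongs to a family whose mouse and human members are not paired by symbol, so these 3 are uncertain.

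The 12 that ranked lowest in the lens against the line included cytokines, a protease and a keratin. IL6 (interleukin-6) was at 0 in every lens and had 60341, 46572 and 41547 counts in HLE-B3, at a mean rank of 98.9. LIF, a cytokine of the same family, had 1, 2 and 0 counts against 18280, 15675 and 14241, and PLAU (urokinase) 1, 0 and 0 against 13137, 11231 and 11272. NNMT, CHAC1 and RRAD were at 0 in every lens and had 8425 to 19503 counts in the line. KRT17, a keratin of activated epithelium, had 1, 0 and 0 against 106406, 90407 and 81490, and ANKRD1, a target of YAP, had 3, 0 and 0 against 66480, 49558 and 59271. HIST1H2AH and the mitochondrial genes MT-TE, MT-TF and MT-ND4L completed the 12, and these short or repeated genes are uncertain in count. Over all tested genes, 270 were at 0 in every HLE-B3 library, 19 of them with a lens rank over 95, and 332 were at 0 in every lens, 7 of them with an HLE-B3 rank over 95.

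The 10 genes of highest counts per kb in the lens were all crystallins. Those of HLE-B3 were HSPA1A, MT-CO2, MT-CO3, MT-CO1, HSP90AB1, HSPA8, MALAT1, TMSB10, MT-ATP6 and MT-ND4. HSPA1A, the inducible HSP70, had 1345317, 1006386 and 1102319 counts in the line and 3, 7 and 1 in the lens, and its near-identical copy HSPA1B had 199181, 166174 and 166349 and 5, 11 and 0, so the split between the copies is uncertain. HSP90AB1, the constitutive HSP90, ranked at 99.7 in the lens and 100.0 in the line, HSPA8 at 98.6 and 100.0 and the nuclear RNA MALAT1 at 99.9 in both. TMSB10, thymosin beta 10, ranked at 97.4 and 99.9. The mitochondrial genes were counted unevenly in the mouse tables, with 15423, 17846 and 19021 counts of MT-CO1 in the lens and 11, 12 and 26 of MT-CO2, and in the NLPCs MT-CO1 ranked at 100.0 and MT-CO2 at 38.3, so the values of mitochondrial genes are uncertain.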

How the data were processed

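RNA-seq libraries of 3 control lenses and 3 WT HLE-B3 samples were compared, with 3 WT NLPC libraries for ranks alone. The authors made stranded TruSeq libraries from RNeasy-purified total RNA, aligned the reads with 2-pass STAR 2.6.1b to mm10 or hg19 and counted them per gene with HTSeq 0.11.0. The submitters' processing notes also name HISAT2 2.0.4 and featureCounts, with no role given. The deposited tables hold unnormalized read counts for each gene, in 1 table per system of 46882 (lens), 54838 (NLPC) and 60880 (HLE-B3) rows, and all their columns matched a sample.

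Genes were matched by upper-case symbol (16125) or known name (6). Rows with a repeated symbol (4 lens, 4458 HLE-B3) and 24 genes without a length were left out, and 16107 genes, 15551 of them protein-coding, were used. A shared symbol does not ensure orthology. Merged exon lengths came from the gene annotation of each build. Genes were filtered with filterByExpr (minimum count 10, total 15), scaled by TMM and fitted with edgeR 4.0.16 (R 4.3.3), group as the only term and length as an offset, with Benjamini-Hochberg adjustment over 12108 genes. The minimum count was converted to a CPM at the median library size, which a gene had to reach in at least 3 libraries. Fewer counts therefore sufficed in a lens library, and more were needed in an HLE-B3 library. The common biological coefficient of variation was 0.132. No p-value was computed on ranks, since an exact permutation test of 3 against 3 cannot go below 0.1. Intervals and floors cover counting error only.

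Named genes were all crystallins, lens transcription factors and fibre genes, up to 6 members of each other list with the largest rank difference in each direction, members near 0, 12 genes outside the lists in each direction, the 10 highest genes of each group and QKI. Other members were named after their values were seen. The members and lists were chosen with earlier results of these data known. The steps were tested on simulated counts with known changes. Alternatives were other scalings, filters, gene length, thinning, rank thresholds, DESeq2 1.42.0, a replicate block and each library left out. Those with protein-coding genes only, and with genes left out that share 50% or more of their exon bases on the same strand with another gene, were chosen after seeing the data. The Qk-deleted libraries were not used here. Totals for the lists include every member tested, although individual values for a few members are not reported here.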

Additional observations from a re-analysis of the deposited data

How the results depend on the processing

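Over 15 summary results, 211 values under the alternatives stayed close to the reported one, 10 counts moved by over 1.5 times and the Spearman correlation moved under 3 settings. Scaling to total counts alone moved the median log2 difference of all genes by −1.67 and left 2660 genes higher by edgeR, with 8342 lower, where TMM gave 4958 and 5598, and RLE size factors moved it by 0.17. Requiring at least 10 counts in every library removes genes at or near 0 in one system, and only CRYAB and CRYGS of the crystallins remained. Under that filter 1 crystallin and 7 fibre genes were higher in the lens by rank. Lower were 2 general epithelial, 12 mesenchymal and 6 MAPK feedback and early response genes. The Spearman correlation of mean ranks was 0.345 under that filter, 0.617 with every gene of at least 1 count and 0.499 without a length term. With a threshold of 10 points 4316 genes ranked lower in the lens, and with 30 points 1797 ranked higher and 1721 lower, with 2 cholesterol genes higher. DESeq2 called 5251 genes higher and 5218 lower. Of the 5547 genes called by rank, 3518 were also called with the threshold of 30 points, and 3846 to 5547 under the other settings. At most 1 of those shared had turned direction in any setting.

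With each library left out in turn, 4833 to 4903 genes were higher and 5445 to 5498 lower by edgeR, 2732 to 2767 ranked higher and 2768 to 2807 lower, and the Spearman correlation was 0.431 to 0.439. Lens and HLE-B3 libraries that share a replicate number were not paired by design, and their deviations from the group means correlated at −0.035, 0.014 and 0.014, so they share only a number. With the replicate number as a block, 4829 genes were higher and 5429 lower by edgeR.

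Depth limits the low genes of the lens, whose libraries hold 4651776 to 5716215 counts outside the crystallins. Thinning each library to the smallest total over the matched genes other than crystallins left 5418 of the 5547 rank calls.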
